A study of Rattus norvegicus with 12 samples.

Results

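*Cdkn1a* encodes p21, an inhibitor of cyclin-dependent kinases, and is the best known gene switched on by the transcription factor p53. The 9 genes described here, of 37209 listed in the count table, were taken by name: *Cdkn1a*, 6 further p53-responsive genes (*Mdm2*, *Ccng1*, *Bax*, *Gadd45a*, *Sesn1* and *Sesn2*) and 2 relatives, *Gadd45b* and *Cdkn1b*, which belong to the same protein families but are not classical p53 targets. *Cdkn1a* was chosen by its lower level in alcohol-exposed rats, and the question was whether p53 targets shared that difference. The levels of the 9 genes in the 2 groups are therefore given as a description, with no test.

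The RNA came from the central nucleus of the amygdala (CeA) of 12 male wild-type Sprague Dawley rats aged 14 to 16 weeks. Of these, 6 rats breathed ethanol vapor intermittently over a chronic schedule (chronic intermittent ethanol, CIE) and 6 breathed air (Control), and no other treatment or allele was named in the labels for either group. Tissue was punched from 1 hemisphere at the end of the last exposure, with no withdrawal period. Poly-A RNA-Seq gave 1 library per rat, with a total of 61978486 to 78441691 counts in CIE rats and 39082548 to 95647601 in Control rats. Rats carry the numbers of their titles, 1 to 6 for CIE and 7 to 12 for Control, and an effect that follows this order cannot be told apart from CIE. The summed level of 10 general neuron markers was 4813 to 5379 CPM (counts scaled to a common library total) in CIE and 4808 to 5395 in Control, and that of 10 markers of central amygdala neurons was 1793 to 3050 against 2050 to 3475. None of these 20 markers was at 0 in all rats.

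p53 is held at a low level in unstressed cells because MDM2, itself a p53 target, marks it for destruction. DNA damage and other stresses release it, and it then raises genes that stop the cell cycle (*Cdkn1a*), repair DNA or signal stress (*Gadd45a*), restrain the growth pathway mTORC1 (*Sesn1*, *Sesn2*) or open the way to apoptosis (*Bax*). p21 can also be raised without p53, among others by glucocorticoid hormones. In the adult brain it is expressed in several cell types, including glia and cells of vessels. CeA punches hold all of these cells, and in such bulk tissue fewer cells of a type and less RNA per cell cannot be told apart.

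A p53 binding site is made of a pair of half-sites of 10 bases each. RefSeq promoter windows of the rat (GRCr8, 250 bases before to 50 after the start of transcription) were matched for 8 of the 9 genes. Both strands were searched for the paired site of 20 bases, with the central C and G of each half-site intact and at most 2 mismatches elsewhere. Such a match was found in 2 of the 8 windows, those of *Cdkn1a* and *Ccng1*, against 112 of 33469 windows of all genes (0.335%). They are shown here because they are the only 2 windows among these genes that hold the paired site, which is printed in capitals together with its flanks. In *Cdkn1a* the stretch is chr20:7150691-7150790 (plus strand), in *Ccng1* chr10:25685059-25685126 (minus strand), and in *Aen*, another p53 target with a match, chr1:142224463-142224532 (plus strand).
Cdkn1a: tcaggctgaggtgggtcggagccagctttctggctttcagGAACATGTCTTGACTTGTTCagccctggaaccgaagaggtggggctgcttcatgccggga
Ccng1: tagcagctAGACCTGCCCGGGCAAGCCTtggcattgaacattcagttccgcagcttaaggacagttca
Aen: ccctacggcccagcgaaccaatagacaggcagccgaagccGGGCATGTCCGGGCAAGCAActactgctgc
The first base of the site lay 201 bases before the start in *Cdkn1a*, 242 in *Ccng1* and 30 in *Aen*, with 1, 1 and 2 mismatches. A single half-site without mismatch was present in 4 of the 8 windows (*Cdkn1a*, *Ccng1*, *Gadd45a* and *Sesn1*) and in 7.98% of all windows, with half-sites that lie inside a paired site included in these counts. Among 31 windows of other p53 targets the half-site was in 12.9% and the paired site in 9.68%, those of *Aen*, *Pidd1* and *Zfp365*. Among the 8, the *Cdkn1a* window was the 1 without a GC box (GGGCGG, in 33.1% of all windows on either strand). It was also the 1 without the letters CCAAT (in 37.5% of all windows). Among the 31 windows of other p53 targets a GC box was in 71% and CCAAT in 41.9%. Those of *Ercc5*, *Pidd1*, *Plk3* and *Triap1* lacked both too. A match is a description of letters in a short window, and p53 sites outside it were not searched. Each of the 8 genes had 1 window. What the *Cdkn1a* window holds or lacks is thus a trait of that 1 start, and other starts of the gene were not searched.

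Of the 9 genes, *Cdkn1a* was clearly lower in CIE rats. Its level was 3.99 CPM in the lowest CIE rat, 5.04 at the median and 5.71 in the highest, against 7.35, 8.03 and 9.6 in Control. Every CIE rat lay below every Control rat, which was so for 0.554% of the 20944 genes tested (the opposite order held for 0.339%). The means were 5.02 ± 0.632 and 8.2 ± 0.817 CPM (SD, n = 6 each), a ratio of 0.612 and a log2 fold change of −0.71 (SE 0.11). These levels rest on 258 to 798 counts per library.

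**Figure D1:**
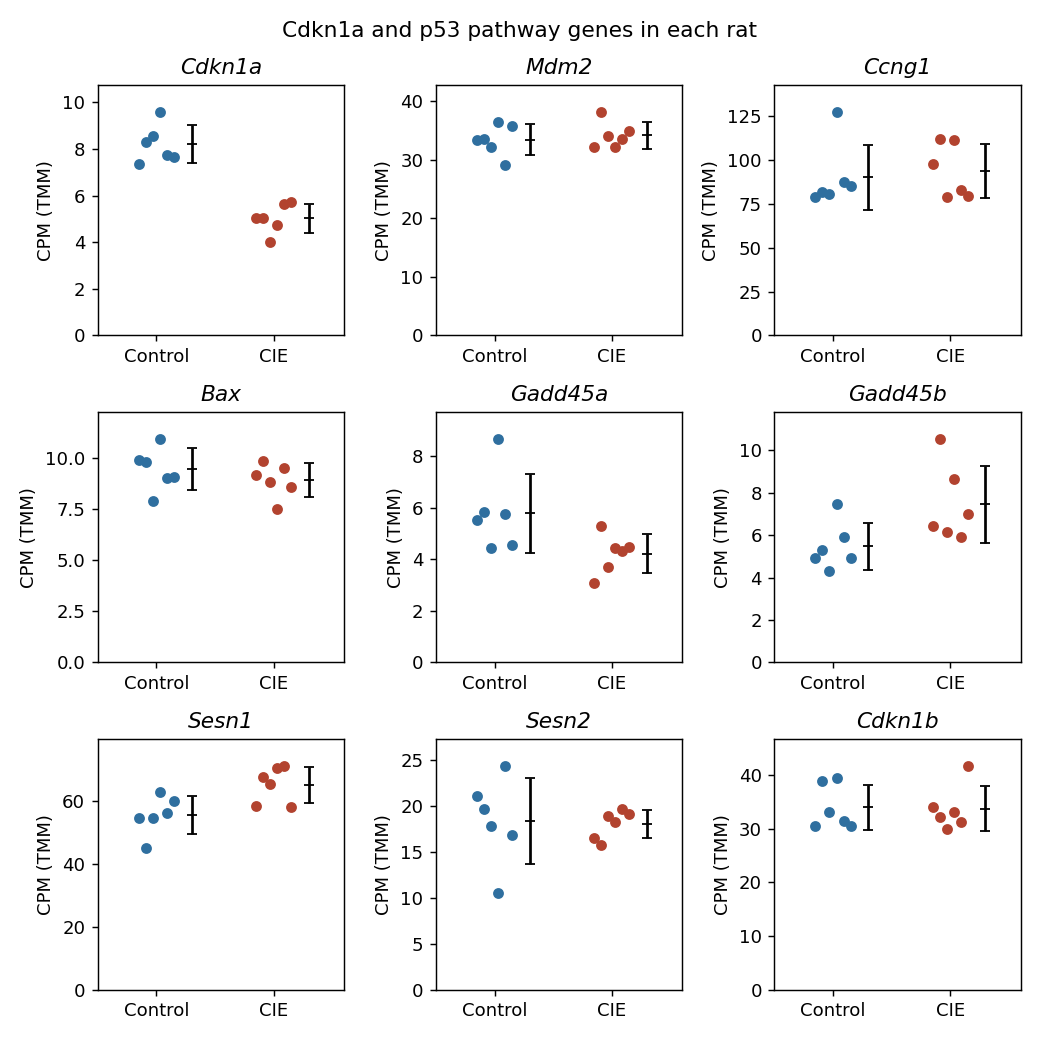
Level of the 9 genes in each rat, in CPM after TMM normalization (y axis, from 0), in 6 Control and 6 CIE rats; black bars give the mean and SD. *Cdkn1a* is the 1 panel in which the groups do not overlap, with Control rats from 7.35 and CIE rats up to 5.71 CPM.

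The 2 genes whose products feed back on p53 differed little between the groups. *Mdm2*, which encodes the ubiquitin ligase that removes p53, had 32.1, 33.7 and 38.1 CPM in the lowest, median and highest CIE rat and 29.1, 33.5 and 36.4 in Control. The groups overlapped, with 1 CIE rat above all Controls. The log2 fold change was 0.03 (SE 0.07, 95% interval −0.11 to 0.17). *Ccng1*, which encodes cyclin G1, a partner of the phosphatase PP2A that acts on MDM2, ranged over 78.7, 90.6 and 112 CPM in CIE and 78.9, 83.4 and 128 in Control. The highest value belonged to Control rat 10, and the other Control rats lay at 78.9 to 87.4 CPM. The log2 fold change of *Ccng1* was 0.06 (SE 0.13), and 0.19 without this rat.

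*Bax*, which encodes a pore-forming protein of the mitochondrial route to apoptosis, had 7.48, 8.99 and 9.86 CPM in CIE and 7.89, 9.43 and 10.9 in Control. The groups overlapped, with a log2 fold change of −0.08 (SE 0.09). Its level, like that of *Cdkn1a*, rests on few counts, 349 to 941 per library.

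The *Gadd45* genes, whose products bind p21, the sliding clamp PCNA and stress kinases, went different ways. *Gadd45a*, the p53-responsive member, had 3.08, 4.38 and 5.28 CPM in CIE and 4.45, 5.62 and 8.66 in Control. Of the CIE rats, 3 lay below all Controls, and the highest value was again that of Control rat 10. The log2 fold change of −0.45 (SE 0.17) was the only one among the other 8 genes to share the sign and the order of size of the *Cdkn1a* value, and it was −0.30 without Control rat 10. *Gadd45b*, an early-response gene in neurons, had 5.92, 6.7 and 10.5 CPM in CIE and 4.32, 5.11 and 7.46 in Control. All 6 CIE rats lay above the Control median and 2 above every Control rat, with a log2 fold change of 0.45 (SE 0.17). Another relative, *Gadd45g*, had means of 7.51 and 6.31 CPM and a log2 fold change of 0.25 (SE 0.17, 95% interval −0.11 to 0.62).

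The sestrins, which sense amino acids and stress and damp mTORC1, gave no value like that of *Cdkn1a*. *Sesn1*, the classical p53 target of the pair, had 58, 66.5 and 71.1 CPM in CIE and 45.1, 55.5 and 63 in Control. Of the CIE rats, 4 lay above all Controls, and the log2 fold change was 0.23 (SE 0.08). *Sesn2*, which also responds to the stress factor ATF4, had 15.7, 18.6 and 19.6 CPM in CIE and 10.5, 18.7 and 24.3 in Control. The CIE rats lay inside the Control range, whose lowest value was that of Control rat 10, and the log2 fold change was −0.03 (SE 0.15). *Sesn3*, a relative controlled by FOXO factors, had a log2 fold change of −0.06 (SE 0.11).

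*Cdkn1b* encodes p27, the sister inhibitor of p21. Its level was 29.9, 32.7 and 41.7 CPM in CIE and 30.5, 32.3 and 39.5 in Control, with a log2 fold change of −0.01 (SE 0.09). The third of these inhibitors, *Cdkn1c* (p57), had 3.65 to 6.3 CPM in CIE and 5.11 to 7.83 in Control, and 5 CIE rats lay below all Controls. Its log2 fold change was −0.60 (SE 0.16), and it did not pass 5% FDR in edgeR's quasi-likelihood test (adjusted p = 0.169). DESeq2 and limma-voom both called it lower.

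**Figure D2:**
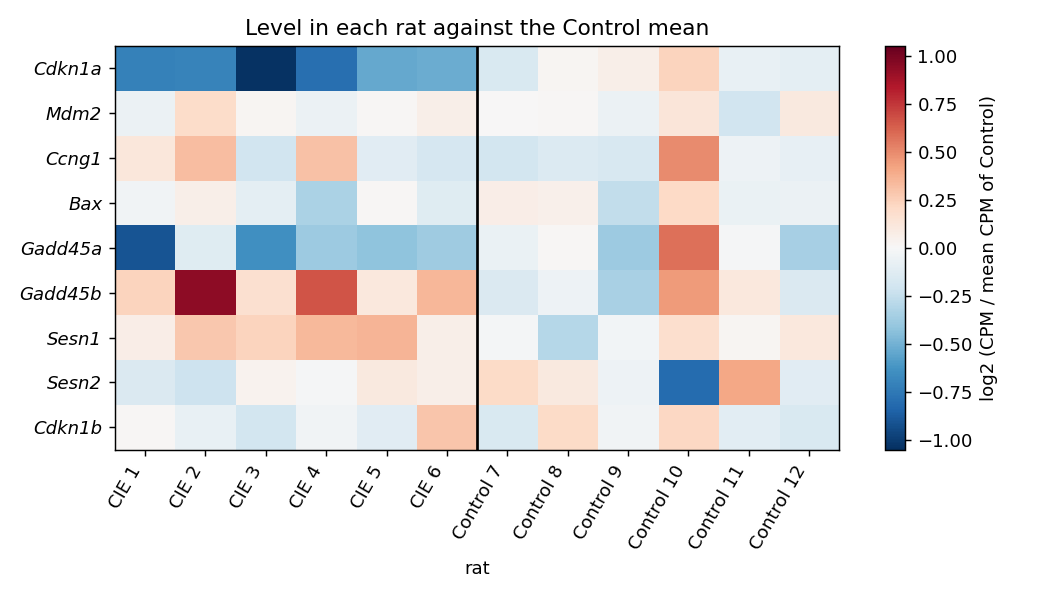
Level of each of the 9 genes (rows) in each of the 12 rats (columns) as log2 of the CPM over the Control mean; blue is lower and red higher, and the line divides CIE from Control. The *Cdkn1a* and *Gadd45a* rows lie below the Control mean in all 6 CIE rats and the *Gadd45b* and *Sesn1* rows above it, the other 5 rows are mixed, and Control rat 10 is high in *Ccng1*, *Gadd45a* and *Gadd45b* and low in *Sesn2*.

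By sign, 5 of the 9 genes were lower and 4 higher in CIE, with a median log2 fold change of −0.01 against 0.00 over all genes tested. The fit over all genes placed 1 of the 9 past 5% FDR as lower, *Cdkn1a*, beside a background of 0.258% of genes called lower and 0.105% called higher. At a nominal p below 0.05 it placed *Cdkn1a* and *Gadd45a* lower and *Gadd45b* and *Sesn1* higher, beside 4.31% of all genes lower and 4% higher. Nothing is read from these counts, since the contrast served to choose *Cdkn1a*.

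A wider list of 34 other p53 targets, none of which served to choose the set, was compared in the same fit. Like all lists here, it was drawn up with earlier results of these data known. Over all genes, 4.31% were lower and 4% higher at a nominal p below 0.05. Of the 32 with enough counts (*Gdf15* was too low and *Ppm1d* was listed at 0), none passed 5% FDR in edgeR's test, 1 was lower at a nominal p below 0.05 and 3 were higher. By sign 13 were lower and 19 higher, with a median log2 fold change of 0.06 and a range of −0.47 to 0.72. The smallest p belonged to *Ddit4* and *Polk*, both higher in CIE. *Ddit4* encodes REDD1, another brake on mTORC1 that glucocorticoids also raise, and it belongs to the glucocorticoid list as well. It had a mean of 72.7 ± 12.3 CPM in CIE and 53.9 ± 6.78 in Control (SD, n = 6 each), a log2 fold change of 0.43 (SE 0.11, edgeR adjusted p = 0.169), with 5 CIE rats above all Controls. DESeq2 called it at an adjusted p of 0.0289 and limma-voom at 0.0408. *Polk* encodes a polymerase that copies damaged DNA. It had 14.3 ± 1.43 against 11.5 ± 0.98 CPM (SD, n = 6 each), a log2 fold change of 0.32 (SE 0.09, edgeR adjusted p = 0.184), and DESeq2 called it at 0.0321. In simulated data DESeq2 made 38 false calls at 5% FDR, against 12 in edgeR. Those data were drawn with edgeR's own dispersions and changes of 1 log2 unit, larger than those of *Ddit4* and *Polk*. They therefore cannot say whether the calls of these genes are false.

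The other 2 targets past the nominal threshold, named after their values were seen, were *Tp53inp1*, a p53-induced cofactor of p53 (0.27, SE 0.10), and *Sulf2*, which trims heparan sulfate and was the 1 lower target (−0.28, SE 0.12). Neither passed 5% FDR (edgeR adjusted p = 0.458 and 0.575). Targets that are often read as a signature of p53 activity, also named after their values were seen, included *Zmat3* at −0.01 (SE 0.07), *Phlda3* at −0.24 (SE 0.18), *Bbc3* (PUMA) at 0.12 (SE 0.15) and *Eda2r* at 0.72 (SE 0.43). The lower end of the 95% interval reached the *Cdkn1a* value of −0.71 in 3 of the 32 targets (*Fas*, *Pidd1* and *Sfn*, also named after their values were seen) and the upper end of the interval of *Cdkn1a*, −0.48, in 9. The reference is the estimate of a gene selected for its size, and no difference between *Cdkn1a* and these targets was tested.

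**Figure D3:**
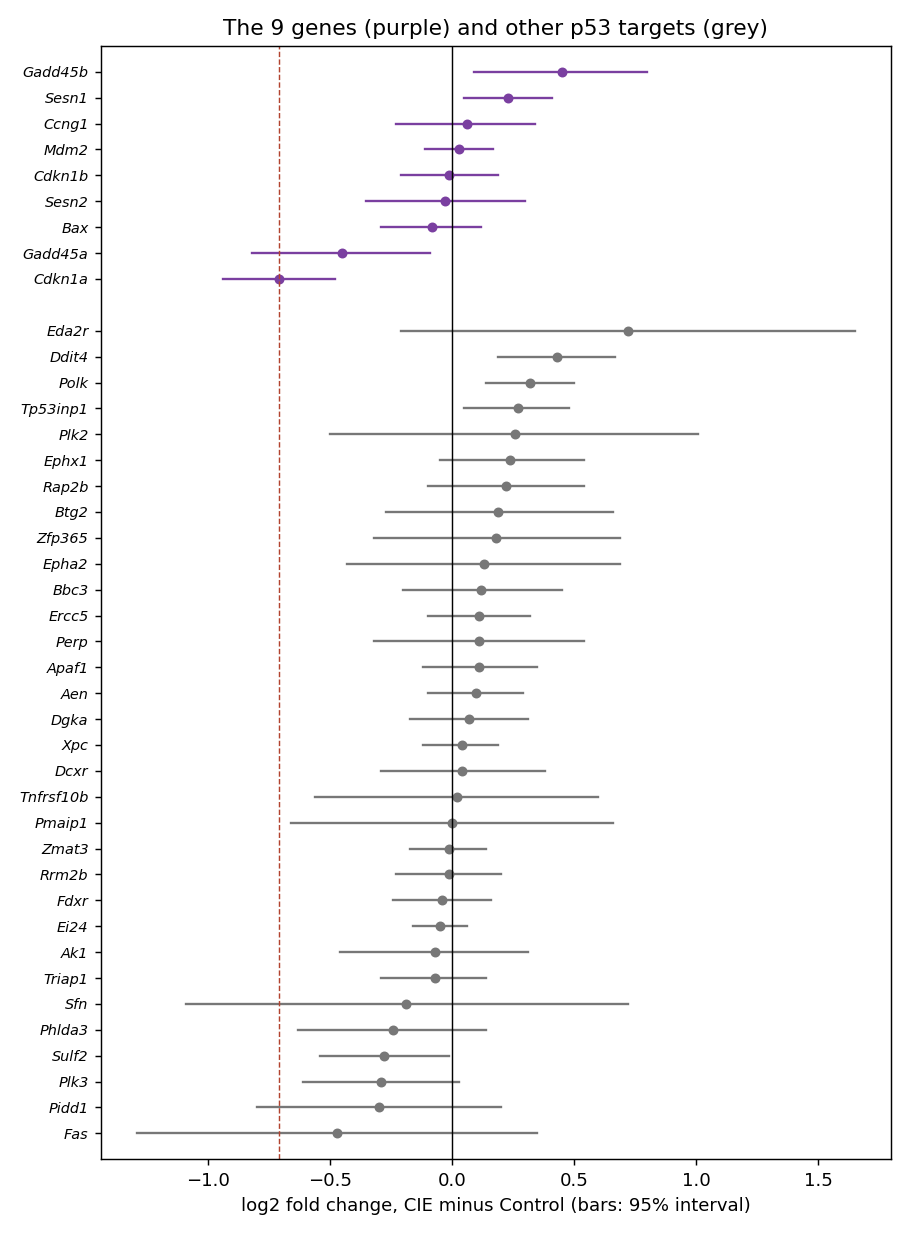
Log2 fold change of CIE over Control (x axis) with its 95% interval for the 9 genes (purple) and the 32 other p53 targets tested (grey); the dashed line marks the *Cdkn1a* value of −0.71. Among the grey genes the intervals of *Fas*, *Pidd1* and *Sfn* reach the dashed line, and the interval of *Cdkn1a* itself runs from −0.94 to −0.48.

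Regulators of the pathway were counted in the same fit, beside nominal shares over all genes of 4.31% lower and 4% higher. *Mdm4*, an inhibitor of p53, had a log2 fold change of 0.06 (SE 0.07). Of 17 listed relatives and regulators of p53, none passed 5% FDR in edgeR's test and 2 were higher at a nominal p below 0.05. These were the kinases of the damage response *Atm* (0.22, SE 0.08, adjusted p = 0.377) and *Chek2* (0.36, SE 0.16, adjusted p = 0.596). DESeq2 and limma-voom called none of the 17.

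Genes downstream of p21 and genes that share its inputs were counted likewise, beside the same shares of 4.31% lower and 4% higher. Of 22 cell cycle genes none passed 5% FDR and 2 were lower at the nominal threshold, cyclin D1 *Ccnd1* (−0.40, SE 0.09, edgeR adjusted p = 0.0765) and the topoisomerase of dividing cells *Top2a* (−0.89, SE 0.25, adjusted p = 0.211). Of 6 further inhibitors and relatives *Cdkn1c* alone was past it. Of 12 ATF4 targets 1 was lower and 1 higher (*Chac1* at −0.24 with SE 0.09 and *Slc3a2* at 0.11 with SE 0.05). Of 12 immediate early genes 2 were higher (*Junb* and *Fosb*, both at 0.60, SE 0.19 and 0.27), and 11 had a positive sign. None of these 4 lists held a gene past 5% FDR in edgeR's test. DESeq2 called *Ccnd1*, *Top2a* and *Cdkn1c* and limma-voom *Ccnd1* and *Cdkn1c*, all lower, and neither called an ATF4 target or an immediate early gene.

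The list of glucocorticoid-induced genes stood out in the other direction. Of its 15 genes 3 rose in CIE at 5% FDR in edgeR's test (8 in DESeq2 and 9 in limma-voom), 11 were higher at the nominal threshold, none was lower, and the median log2 fold change was 0.56. The 3 were the transcription factor *Zbtb16* (1.45, SE 0.20, adjusted p = 0.0102), *Tsc22d3* or GILZ (0.57, SE 0.09, adjusted p = 0.0159) and the kinase *Sgk1* (1.22, SE 0.22, adjusted p = 0.0273). Over all genes, 0.105% were higher at 5% FDR and 4% at the nominal threshold. *Cdkn1a* was lower in the group in which this list was higher. A part of glucocorticoids in the *Cdkn1a* level was not tested.

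Several cell type lists moved with *Cdkn1a*. Of 15 markers of myelinating oligodendrocytes none passed 5% FDR in edgeR's test (4 in DESeq2 and 5 in limma-voom, all lower), but 13 were lower in CIE at the nominal threshold and all 15 had a negative sign, with a median log2 fold change of −0.56. Their summed level was 6032 to 14612 CPM in CIE and 9261 to 17225 in Control, and none was at 0 in all rats. Of 14 endothelial markers 5 were lower and 1 higher at the nominal threshold, and the 15 in the table had a summed level of 372 to 482 CPM in CIE and 412 to 505 in Control. Of 7 erythroid genes, 3 fell at 5% FDR (*Hba1*, *Hbb* and *Slc4a1*), and the summed level was 90.3 to 286 CPM in CIE and 363 to 662 in Control, with no overlap. Nominal calls were 2 lower and 2 higher of 10 astrocyte markers, 1 lower of 10 neuron markers and 1 lower of 10 microglia markers. They were 1 lower of 5 OPC (oligodendrocyte precursor) markers and 3 lower of 10 central amygdala neuron markers. Over all genes, 4.31% were lower and 4% higher at the nominal threshold, and 0.258% were lower at 5% FDR.

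With the myelin marker score (the mean log2 CPM of the 15 markers) as a covariate, the log2 fold change of *Cdkn1a* was −0.51 (SE 0.12), and with the endothelial score it was −0.57 (SE 0.12). In both fits it was still negative. Its adjusted p in edgeR's test was 0.145 with the myelin score and 0.107 with the endothelial score, against 0.0116 without a score. *Cdkn1a* thus no longer passed the FDR threshold in either fit. *Gadd45a*, the 1 other gene with a value of the same order, went to −0.28 (SE 0.24) with the myelin score and to −0.11 (SE 0.16) with the endothelial score. Beyond these fits, the part of cell composition in the *Cdkn1a* difference was not tested.

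**Figure D4:**
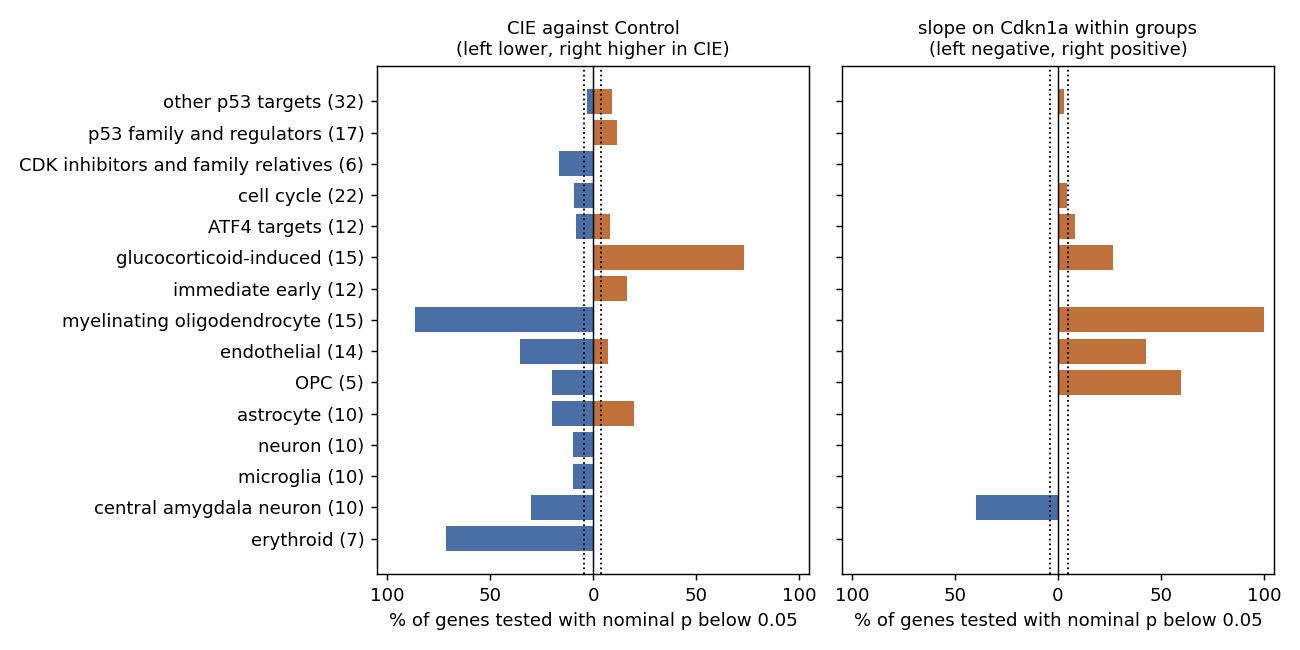
Share of each gene list (genes tested in parentheses) with a nominal p below 0.05, for CIE against Control (left panel; blue lower, orange higher in CIE) and for the slope on *Cdkn1a* between rats of the same group (right panel; blue negative, orange positive); dotted lines mark the shares over all genes. The other p53 targets lie near the dotted lines in both panels, and the myelin markers lie far from them, at 13 of 15 lower and 15 of 15 with a positive slope.

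The differences between rats of the same group gave a measure that the choice of *Cdkn1a* had not used. For each gene the slope of its log2 level on that of *Cdkn1a* was fitted with the group as a term, so that a slope of 1 means that a gene doubled between rats when *Cdkn1a* did. The level of *Cdkn1a* carries its own counting error, which the slope does not take into account. No gene of 20943 passed 5% FDR in edgeR's test (0% called), while 4.72% had a positive and 3.67% a negative slope at a nominal p below 0.05, 1756 genes in all. DESeq2 called 49 genes at 5% FDR and limma-voom none. With simulated slopes of 2, also drawn with edgeR's dispersions, DESeq2 made 34 false calls, against 7 in edgeR.

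Of the other 8 genes, 7 had a positive slope, as did 11010 of the 20943 genes tested, and 1 was past the nominal threshold. That gene was *Cdkn1b*, with a slope of 0.74 (SE 0.25, edgeR adjusted p = 0.522). The slopes of the p53 targets were 0.16 (SE 0.22) for *Mdm2*, 0.58 (SE 0.43) for *Ccng1*, 0.25 (SE 0.31) for *Bax* and 0.92 (SE 0.51) for *Gadd45a*. They were 0.03 (SE 0.28) for *Sesn1* and −0.73 (SE 0.50) for *Sesn2*, and that of *Gadd45b* was 0.49 (SE 0.56). Control rat 10, the highest of all rats in *Cdkn1a*, weighed on these values: without it the slope was 0.02 for *Mdm2* and for *Bax*, −0.16 for *Ccng1*, 0.27 for *Gadd45a*, −0.19 for *Gadd45b*, −0.25 for *Sesn1* and −0.06 for *Sesn2*. This rat was also the highest Control in the summed level of the other p53 targets (1181 CPM, against 937 to 1005 in the other Control rats), the inhibitors and relatives (227 CPM), the glucocorticoid-induced genes (541 CPM), the cell cycle genes (278 CPM), the immediate early genes (299 CPM), the endothelial markers (505 CPM) and the central amygdala neuron markers (3475 CPM). It was the lowest Control in the summed level of the relatives and regulators of p53 (1058 CPM, against 1142 to 1191). The same held for the general neuron markers (4808 CPM, against 5153 to 5395). Such sums rest mostly on the most abundant genes of a list. In the mean log2 CPM of each list, this rat was the lowest Control for central amygdala neuron markers (6.72, against 6.76 to 7.07). For cell cycle genes it lay below Control rats 7 and 8 (2.49, against 2.53 and 2.58). For the remaining lists in which its sum was the highest, it was again the highest Control. It was again the lowest for the relatives and regulators of p53 (4.31, against 4.49 to 4.75). For general neuron markers it lay just above Control rat 9 (8.68 against 8.67). With the myelin score as a further covariate, added after the values were seen, the slope of *Cdkn1b* was 0.23 (SE 0.33), while those of *Sesn1* and *Ccng1* were 0.85 (SE 0.29) and 1.25 (SE 0.60) and that of *Sesn2* was −1.56 (SE 0.68). With the endothelial score, added likewise, it was 0.43 (SE 0.30) for *Cdkn1b*, 0.01 (SE 0.55) for *Gadd45a* and −0.37 (SE 0.62) for *Gadd45b*. None of the 8 passed 5% FDR in either fit.

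Of the 32 other p53 targets 1 had a slope past the nominal threshold, *Dgka*, a diacylglycerol kinase, at 1.04 (SE 0.25, edgeR adjusted p = 0.478). *Dgka* was named after its value was seen. The slope was positive in 25 of the 32, against 11010 of the 20943 genes tested. The median slope of the list was 0.31, against 0.03 over all genes. How far these values rest on Control rat 10, the highest in *Cdkn1a*, was not tested. All 15 myelin markers had a positive slope at the nominal threshold, with a median of 1.78. This count was 10 to 15 when 1 rat at a time was left out (10 without CIE rat 6). None of the 15 slopes passed 5% FDR in edgeR's test. Markers of 1 cell type measured in the same rats are not independent results. Of the endothelial markers 6 of 14, of the OPC markers 3 of 5 and of the glucocorticoid-induced genes 4 of 15 had a positive nominal slope, and 4 of 10 central amygdala neuron markers had a negative one.

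The genes most like *Cdkn1a* between rats, by the smallest p of a positive slope, were the glucocorticoid-induced kinase *Sgk1* (slope 2.32, SE 0.39), the glycerol-3-phosphate dehydrogenase *Gpd1* (2.51, SE 0.43), the myelin gene *Mobp* (2.11, SE 0.40), *Trpt1* (2.30, SE 0.45) and *Gng8* (2.37, SE 0.48). The smallest p of a negative slope were those of *Cyp19a1*, which encodes aromatase (−6.73, SE 1.07), *Prdm13* (−10.40, SE 1.97), *A2ml1* (−6.36, SE 1.26), *LOC690918* (−3.37, SE 0.71) and *Cst6* (−2.03, SE 0.44). In all 5 of these CIE rat 3, the lowest in *Cdkn1a*, was the highest of the CIE rats: *Cyp19a1* was 12.9 CPM there against 1.02 to 2.75 in the other CIE rats. *Prdm13*, which is scarce at 0 to 253 counts per library, was 3.91 CPM against 0.0615 to 0.433. Without this rat the 5 slopes were still negative, at −5.48 (SE 1.83) for *Cyp19a1* and −8.17 (SE 3.84) for *Prdm13*. None of these 10 genes passed 5% FDR in edgeR's test (adjusted p = 0.38 to 0.478), and none is among the 9 genes or the other p53 targets.

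**Figure D5:**
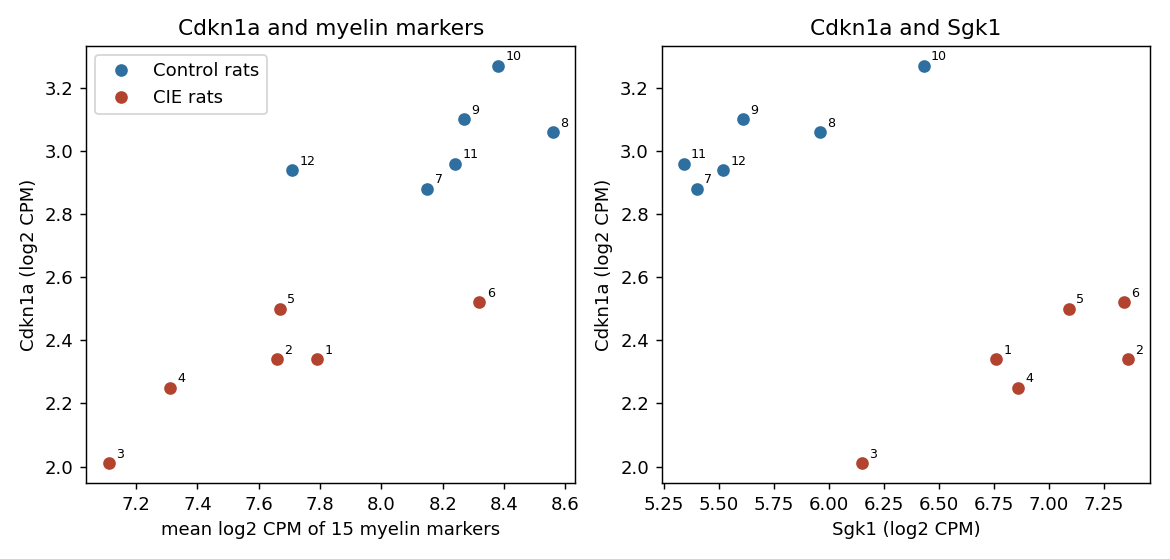
Log2 CPM of *Cdkn1a* (y axis) against the mean log2 CPM of 15 myelin markers (left panel) and against *Sgk1* (right panel) in each rat, numbered, with Control in blue and CIE in red. *Cdkn1a* tends to be higher where either measure is higher within a group, yet between the groups most CIE rats lie to the left of most Controls for myelin (7.11 to 8.32 against 7.71 to 8.56) and to the right for *Sgk1* (6.15 to 7.36 against 5.34 to 6.43).

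The 2 genes with the smallest p of a positive slope, *Sgk1* and *Gpd1*, differed from *Cdkn1a* in the comparison of the groups. *Sgk1* had 71 to 164 CPM in CIE and 40.4 to 86 in Control, and *Gpd1* had 87.3 to 213 against 33.6 to 78.7, with log2 fold changes of 1.22 (SE 0.22) and 1.23 (SE 0.24) that passed 5% FDR in edgeR's test (adjusted p = 0.0273 and 0.0469). Both were thus higher in CIE while *Cdkn1a* was lower, and their positive slopes between rats did not pass 5% FDR.

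The relation of *Cdkn1a* to the myelin and endothelial scores was computed within each group, 4 relations chosen after the values were seen. In the 6 CIE rats the correlation with the myelin score was r = 0.85 (exact permutation p = 0.0278, adjusted over the 4 relations 0.0639) and rho = 0.83 (exact permutation p = 0.0583). Without rats 3 and 6, the farthest from the median score, it was r = 0.56. In the 6 Control rats it was r = 0.53 (exact permutation p = 0.267, adjusted 0.356) and rho = 0.77 (exact permutation p = 0.103), and r = 0.96 without rats 8 and 12. For the endothelial score the Control rats gave r = 0.86 (exact permutation p = 0.0319, adjusted 0.0639) and rho = 0.89 (exact permutation p = 0.0333), with r = 0.81 without rats 10 and 12. The CIE rats gave r = 0.46 (exact permutation p = 0.36, adjusted 0.36) and rho = 0.49 (exact permutation p = 0.356), with r = 0.39 without rats 1 and 6. None of the 4 passed 0.05 after adjustment. All 4 were positive.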

How the data were processed

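CeA RNA of 6 CIE and 6 Control rats was sequenced after poly-A selection, 1 library per rat. The authors mapped reads to Rnor_6.0 with BWA and deposited raw counts per gene made with HTSeq. The strand and overlap settings and the annotation are not given in the sources used here, so genes that overlap cannot be told apart. Of 215 list symbols, 207 were found by symbol, 5 by synonym and 3 were absent.

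The 9 genes and all lists were chosen with earlier results of these data known. Counts were analysed with edgeR 4.0.16 (TMM, filterByExpr, quasi-likelihood F test, Benjamini-Hochberg over 20944 genes, two-sided). A second fit took the slope on the log2 CPM of *Cdkn1a* (prior count 2) with the group as a term. Correlations were tested by exact permutation, two-sided. Alternatives were DESeq2 1.42.0, limma 3.58.1 (voom with quality weights), other scalings and filters, marker scores as covariates and leaving out each rat. The steps were tested on simulated data with 200 changed genes, at 5% FDR. The counts were drawn with edgeR's dispersions, with group changes of 1 log2 unit and slopes of 2. Recovery of smaller differences was not tested. In the comparison of groups edgeR recovered 177 with 12 false calls, DESeq2 188 with 38 and limma-voom 174 with 11. For slopes these were 111 with 7, 140 with 34 and 106 with 5. Genes named were the 9, Mdm4, Cdkn1c, Gadd45g and Sesn3, up to 4 genes of each list past 5% FDR or the 2 with the smallest p, and 5 genes nearest *Cdkn1a* in each direction. Some other p53 targets were named after their values were seen, as stated beside them. 1 gene of the lists is not reported here. Libraries of the same group stood apart by 17.5 to 215 Poisson variances as a mean over genes, and by 3.7 to 15.9 as a median. All 12 were kept as separate rats. Nothing in the labels pairs rats across groups. Promoters came from RefSeq on GRCr8, a later build than that of the counts, and were matched by symbol.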

Additional observations from a re-analysis of the deposited data

Results flagged for a closer look

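Each of the 18 groups of 6 rats, 9 genes in CIE and in Control, was searched for a rat far from the others, and chance flags about 1 in 20 such groups. *Ccng1* was 128 CPM in Control rat 10, against 78.9 to 87.4 in the other Control rats. *Gadd45a* was 8.66 CPM in the same rat, against 4.45 to 5.82. *Cdkn1b* was 41.7 CPM in CIE rat 6, against 29.9 to 34.1 in the other CIE rats.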

How the results depend on the processing

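The log2 fold change of *Cdkn1a* stayed negative in all 20 alternatives, at −0.75 to −0.65 with 1 rat omitted. It moved to −0.51 with the myelin score and to −0.57 with the endothelial score as a covariate, and in both the number of the 9 genes past 5% FDR was 0. Over all genes, 76 passed 5% FDR, against 266 in DESeq2, 234 in limma-voom, 36 with the myelin score, 14 with the endothelial score and a range of 34 (Control rat 9 omitted) to 154 (CIE rat 6 omitted) over the fits on 11 rats. Of the other p53 targets, 2 passed 5% FDR in DESeq2 and 1 in limma-voom. The number of them lower at the nominal threshold, 1, was 0 with library size only, 2 in limma-voom, 0 with either score and 0 to 2 on 11 rats, and the number higher, 3, was then 3 to 6 (6 without Control rat 10 and 5 without CIE rat 6). Their median stayed at 0.03 to 0.09 on 11 rats. Of the 9 genes, 5 were lower, and 3 to 5 on 11 rats (3 without Control rat 8). The slope fit called 49 genes in DESeq2 and 0 on 11 rats. Of 160 alternative values of the other 8 genes' log2 fold changes, 152 moved by less than the SE given above for that gene's log2 fold change. The cause of these moves was not tested. Every library held at least 39082548 counts, and the 9 genes rest on 200 to 7868 counts per library.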

Other observations

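Of the cell type lists, the 2 genes with the smallest p each had these log2 fold changes (SE in parentheses), none past 5% FDR in edgeR's test. Among myelin genes *Ugt8*, which makes the lipid galactosylceramide, was at −0.96 (0.20) and the tight junction gene *Cldn11* at −0.77 (0.19). Among endothelial genes *Eng*, a receptor of the TGF-beta family, was at −0.41 (0.10) and the adhesion gene *Pecam1* at −0.31 (0.09). The astrocyte water channel *Aqp4* was at −0.28 (0.10) and *S100b* at 0.15 (0.06). *Cx3cr1*, the fractalkine receptor of microglia, was at −0.28 (0.07) and *Csf1r* at −0.13 (0.09). *Olig1* was at −0.36 (0.13), *Pdgfra* at −0.17 (0.10), and the neuronal genes *Tubb3* and *Nefm* at −0.20 (0.09) and −0.19 (0.12). DESeq2 called *Ugt8*, *Cldn11* and *Eng* and limma-voom *Ugt8*, *Cldn11* and *Cx3cr1* among these. *Cdkn2b*, a further inhibitor of cyclin-dependent kinases, was at −0.75 (0.36), at levels below 1 CPM.

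The neuropeptide gene *Crh*, which encodes corticotropin releasing factor, had 5.97 ± 1.54 CPM in CIE and 8.15 ± 1.2 in Control (SD, n = 6 each), a log2 fold change of −0.45 (SE 0.17, edgeR adjusted p = 0.472). Its slope on *Cdkn1a* between rats was −1.20 (SE 0.52), opposite in sign to its shared direction with *Cdkn1a* between the groups. *Tac3* was at −0.37 (SE 0.15), with a slope of −0.48 (SE 0.53).

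The hemoglobin genes *Hba1* and *Hbb* fell by 1.65 and 1.61 on the log2 scale (SE 0.28 each), and *Slc4a1*, the anion exchanger of red cells, fell by 2.62 (SE 0.47). All 3 passed 5% FDR, and every CIE rat lay below every Control rat. Over all genes, 0.258% were called lower and 0.554% had such an order of rats. Hemoglobin genes have near-identical copies between which reads may be split. The slope of *Hba1* on *Cdkn1a* between rats was 0.41 (SE 0.92).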
